A study of Mus musculus with 24 samples.

Results

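The genes described here are 32 that oligodendrocytes and their myelin are known for, taken as a list of gene symbols. They were followed across subregions of the mouse suprachiasmatic nucleus (SCN), the hypothalamic seat of the circadian pacemaker. The list was chosen with earlier results of these data known, so counts and ranks of its genes are a description and no independent support. Of the 32 genes, 30 had an Affymetrix probe set annotated to them alone, out of 18193 such genes in the series. Each gene was read from its brightest probe set, judged by the mean of the 24 arrays. After a filter on low values, 28 of the 30 were tested, among 13494 genes in all. Myrf, a transcription factor that drives myelin genes, and Gal3st1, the sulfotransferase that makes sulfatide, fell below the filter. Trf (transferrin) and Enpp2 (autotaxin) were not used here. The Trf probe set is annotated to another gene as well, and no probe set was annotated to Enpp2 alone.

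The animals were C57BL/6 mice, obtained at 8 weeks of age, that had spent at least 7 days in constant dim red light without time cues. The light groups received 30 min of light at a time when light advances the clock, the sham groups a sham procedure, and tissue was taken 3.5 h afterwards. Ventral, central and dorsal SCN were dissected with a laser from haematoxylin-stained cryosections 25 µm thick, so a sample holds every cell type inside the dissected border. This gave 6 groups of 4 arrays: light and sham in the ventral, the central and the dorsal SCN, each split evenly, 2 and 2, over batches A and B, in which RNA was amplified and labelled. The genotype was the same in all groups, and the labels do not say which arrays share an animal, so p-values measure the spread between these arrays only.

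Oligodendrocytes wrap axons in myelin, a stack of membrane sheets that insulates the axon and speeds conduction. Myelin holds a small set of abundant proteins, which seal the sheets together at their inner and outer faces, and lipids rich in galactose, which dedicated enzymes make. The transcription factors Olig1, Olig2, Sox10 and Myrf set up the lineage and switch on the myelin genes. The SCN itself is mostly small neurons with little myelin, and it lies on top of the optic chiasm, a dense crossing of myelinated axons.

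The promoters of the 4 genes with the largest ventral minus central difference are printed because these genes carried the region pattern. Each window spans the annotated start in RefSeq's GRCm38.p6 annotation, most of it upstream, and is written 5′ to 3′ on the gene's strand. The Mog window is chr17:37023349-37023648 (minus strand), the Tmem88b window chr4:155785825-155786124 (minus strand), the Mobp window chr9:120149492-120149791 (plus strand) and the Mal window chr2:127656646-127656945 (minus strand). Capitals mark matches, on either strand, to 3 short letter motifs: CTGGCAC or CTGGTAC for MYRF, ACAAAG or ACAATG for SOX factors, and CATATG or CATCTG for OLIG factors.
Mog: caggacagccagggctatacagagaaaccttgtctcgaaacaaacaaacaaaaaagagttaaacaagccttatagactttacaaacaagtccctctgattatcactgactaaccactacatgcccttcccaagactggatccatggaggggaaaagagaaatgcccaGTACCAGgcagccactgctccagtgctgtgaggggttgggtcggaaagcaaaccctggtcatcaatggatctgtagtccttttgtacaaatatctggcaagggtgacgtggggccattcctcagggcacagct
Tmem88b: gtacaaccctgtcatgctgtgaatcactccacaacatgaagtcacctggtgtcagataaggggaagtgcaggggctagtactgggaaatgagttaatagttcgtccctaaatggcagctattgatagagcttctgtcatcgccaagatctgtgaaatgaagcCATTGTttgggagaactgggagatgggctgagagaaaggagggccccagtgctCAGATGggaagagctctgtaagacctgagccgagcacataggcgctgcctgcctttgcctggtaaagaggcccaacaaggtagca
Mobp: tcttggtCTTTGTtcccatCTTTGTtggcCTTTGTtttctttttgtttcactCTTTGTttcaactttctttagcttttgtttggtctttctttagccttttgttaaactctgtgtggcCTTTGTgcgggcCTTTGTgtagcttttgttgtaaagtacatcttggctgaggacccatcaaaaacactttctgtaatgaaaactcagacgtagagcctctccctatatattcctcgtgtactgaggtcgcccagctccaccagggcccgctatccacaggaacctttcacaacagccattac
Mal: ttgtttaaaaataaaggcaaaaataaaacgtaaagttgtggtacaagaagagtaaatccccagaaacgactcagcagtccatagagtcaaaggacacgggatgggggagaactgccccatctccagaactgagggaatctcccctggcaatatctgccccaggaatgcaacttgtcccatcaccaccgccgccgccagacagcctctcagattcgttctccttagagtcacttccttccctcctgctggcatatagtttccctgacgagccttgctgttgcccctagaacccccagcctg

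The Mog window held 1 MYRF match, the Tmem88b window 1 SOX and 1 OLIG match, the Mobp window 6 SOX matches and the Mal window none of the 3 motifs. RefSeq windows were found for 19 of the 28 tested genes, some with several starts. No motif's letters lie within another's. Of the 24 windows of these genes, 5 held MYRF letters, against 7.10% of all 32851 promoter windows. SOX letters were in 10 of the 24, against 28.6% of all windows, and OLIG letters in 8 of the 24, against 20.3%. Windows of a gene can overlap, as for Mag, so the same letters can be counted in several windows. By gene, MYRF, SOX and OLIG letters were found for 4, 9 and 7 of the 19, and no share by gene was computed over all genes. A match describes letters in the window and is not a measured binding site.

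Levels are given as the log2 values of the authors' table and are not compared between probe sets. Array medians were 3.52 to 3.62 in batch A but 4.81 to 5.07 in batch B, so each gene is given either within a batch or relative to its mean over the 12 arrays of a batch. The ventral and dorsal labels were checked against neuropeptides. Vip and Grp, made in the SCN core, had ventral minus dorsal log2 differences of 3.43 and 1.58, and Avp, made in the shell, of -1.43. The central label was not checked in this way: Grp was lower in ventral than in central SCN, and Vip was not called between them. A pair of arrays stood apart. Dorsal light 4 correlated with its batch at a median r of 0.913, against 0.977 to 0.987 for the other 11 arrays, and its Gapdh probe sets differed by 5.41 between the 3′ and 5′ ends, against 0.887 to 1.07. Central light 2 had a median correlation of 0.955 with its batch and the lowest mean of the 28 genes. Several results that rest on these arrays are given with and without them.

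Oligodendrocyte genes were highest in the ventral SCN and lowest in the central SCN, with the dorsal SCN between them. The mean of the 28 genes, relative to the batch mean, was 0.60 to 1.24 on the 8 ventral arrays, -1.41 to -0.60 on the 8 central arrays and -0.27 to 0.27 on the 8 dorsal arrays, and these ranges did not overlap. In limma with a batch term, adjusted over all 13494 genes at an adjusted p under 0.05, 26 of the 28 genes were higher in ventral than in central SCN, where 4.36% of all genes were, and none was lower, where 0.845% of all genes were. Between ventral and dorsal SCN, 19 of 28 were higher in ventral, where 2.63% of all genes were higher and 1.98% lower. Between central and dorsal SCN, 18 of 28 were lower in central, where 5.14% of all genes were lower and 1.96% higher. In neither comparison did a gene of the list pass in the other direction. With batch A alone the counts for these comparisons were 19, 9 and 5, and with batch B alone 22, 7 and 7, each from 4 arrays against 4. Of all 13494 genes, 199, 153 and 185 were called in either direction with batch A alone and 176, 124 and 214 with batch B alone. Without dorsal light 4 the counts were 26, 18 and 19 for ventral over central, ventral over dorsal and central under dorsal, and without central light 2 as well 26, 21 and 19. In these fits, 1092, 727 and 1180 of all genes were called in either direction without dorsal light 4, and 1078, 917 and 1207 without both. The median log2 difference of the 28 genes was 1.67 for ventral minus central, 1.00 for ventral minus dorsal and -0.88 for central minus dorsal, against 0.05, 0.01 and -0.05 over all tested genes. In what follows, differences are log2 values ± SE from limma, with p-values adjusted over all tested genes, except where probe sets of a gene are compared. Because each sample is a piece of tissue, fewer oligodendrocytes and less RNA per oligodendrocyte cannot be told apart.

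Because earlier results of these data were known when the list was chosen, the ranks given here only describe it. The 10 genes with the highest ventral minus central difference among all 13494 were all from this list, and Mog had the highest of all. The list also held 13 of the 20 highest and 22 of the 100 highest in that comparison, and 4 of the 20 highest and 12 of the 100 highest for ventral minus dorsal. In both batches, 25 of the 28 genes had the order ventral, dorsal, central from high to low, and 27 were lowest in central. Sox10 and Qdpr were highest in dorsal in batch B. For Sox10 this rested on dorsal light 4, at 9.12, since the other dorsal arrays of batch B read 5.62 to 6.19 and the ventral arrays 5.93 to 6.74. Tppp3 was lowest in dorsal in both batches. All 4 ventral arrays lay above all 4 central arrays in each batch for 25 of 28 genes, as for 2.26% of all genes. Ventral lay above dorsal in this way for 12 of 28, as for 1.24% of all genes, and central below dorsal for 11 of 28, as for 1.58%.

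By which comparisons they passed, 11 genes passed all 3: Mog, Mbp, Mobp, Mal, Cldn11, Tspan2, Tmem88b, Fa2h, Gsn, Plekhh1 and Bcas1. Another 7 were higher in ventral than in both other regions without a called difference between central and dorsal: Mag, Pllp, Ermn, Gpr37, Evi2a, Ugt8a and Aspa. Of these, Mag and Ermn read near the bottom of the scale on the central and dorsal arrays of batch A. A further 7 were lower in central than in both other regions without a called difference between ventral and dorsal: Opalin, Cnp, Olig1, Olig2, Sox10, Qdpr and Cryab. Sirt2 passed for ventral minus central alone, Tppp3 for ventral minus dorsal alone, and Ndrg1 in no comparison. Whether these groupings differ from each other was not tested.

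**Figure D1:**
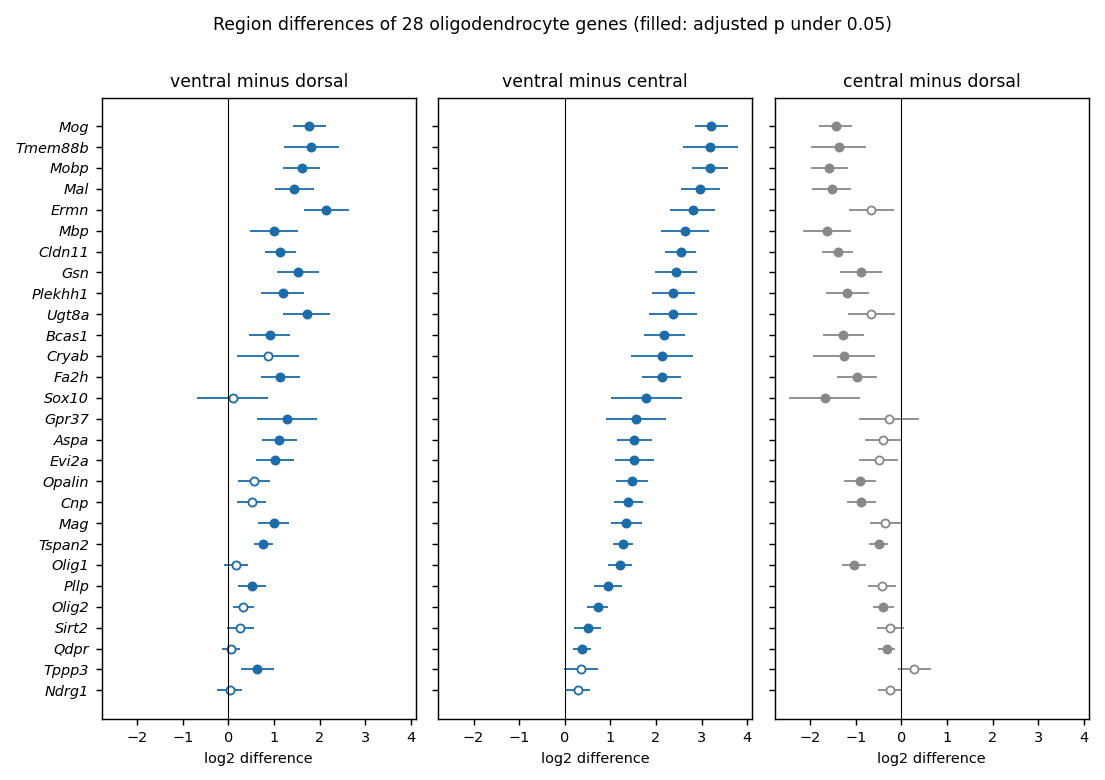
Log2 differences of the 28 tested genes between SCN regions, 8 arrays against 8, with 95% intervals from limma; filled points have an adjusted p under 0.05. All 28 points lie above 0 for ventral minus central and for ventral minus dorsal, and 27 of 28 lie below 0 for central minus dorsal, the exception being Tppp3.

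The proteins of the myelin sheath and of the oligodendrocyte membrane made up 14 of the 28 genes: 14 were higher in ventral than in central, 12 higher in ventral than in dorsal and 9 lower in central than in dorsal SCN. Mog, the myelin oligodendrocyte glycoprotein, sits on the outer face of the sheath. In batch A, Mog read 6.61 and 5.93 on ventral light and 6.58 and 6.66 on ventral sham arrays, 3.72 and 3.00 on central light and 3.28 and 3.51 on central sham arrays, and 4.89 and 4.74 on dorsal light and 3.81 and 4.58 on dorsal sham arrays. In batch B, Mog read 8.60 and 8.49 on ventral light and 7.94 and 8.40 on ventral sham arrays, 5.29 and 4.93 on central light and 5.10 and 4.68 on central sham arrays, and 6.82 and 6.45 on dorsal light and 6.94 and 6.75 on dorsal sham arrays. No central array reached the level of a dorsal array of its batch, and no dorsal array reached a ventral one. Mog was 9.27-fold higher in ventral than in central SCN, a log2 difference of 3.21 ± 0.17 (adjusted p = 1.15e-10). Against dorsal SCN, ventral was higher by 1.78 ± 0.17 (adjusted p = 5.39e-07), and central minus dorsal was -1.44 ± 0.17 (adjusted p = 8.26e-06). Taken within batches, the step from central to ventral was 3.07 in batch A and 3.36 in batch B.

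Mobp, a small basic protein of compact myelin, had the same order. In batch A, Mobp read 9.81 and 9.37 on ventral light and 10.01 and 8.97 on ventral sham arrays, 6.88 and 5.38 on central light and 6.20 and 5.80 on central sham arrays, and 8.21 and 7.68 on dorsal light and 7.94 and 7.25 on dorsal sham arrays. In batch B, Mobp read 11.03 and 10.72 on ventral light and 10.67 and 10.85 on ventral sham arrays, 8.23 and 8.04 on central light and 7.90 and 7.54 on central sham arrays, and 9.41 and 9.39 on dorsal light and 9.45 and 9.27 on dorsal sham arrays. Again no arrays of different regions overlapped within a batch. The ventral minus central difference was 3.18 ± 0.19 (adjusted p = 6.39e-10), ventral minus dorsal 1.60 ± 0.19 (adjusted p = 9.14e-06) and central minus dorsal -1.58 ± 0.19 (adjusted p = 1.02e-05).

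Mbp, myelin basic protein, holds the inner membrane faces together. In batch A, Mbp read 11.68 and 11.10 on ventral light and 11.66 and 11.06 on ventral sham arrays, 9.15 and 7.03 on central light and 8.86 and 8.25 on central sham arrays, and 10.23 and 9.90 on dorsal light and 10.09 and 9.58 on dorsal sham arrays. In batch B, Mbp read 12.03 and 11.92 on ventral light and 11.90 and 12.19 on ventral sham arrays, 10.11 and 9.74 on central light and 9.90 and 9.39 on central sham arrays, and 11.07 and 12.20 on dorsal light and 10.99 and 11.44 on dorsal sham arrays. Central arrays were below all dorsal arrays in each batch, whereas ventral and dorsal arrays overlapped in batch B through dorsal light 4. The ventral minus central difference was 2.64 ± 0.25 (adjusted p = 5.37e-07) and central minus dorsal -1.63 ± 0.25 (adjusted p = 0.000181). Ventral minus dorsal was 1.00 ± 0.25 (adjusted p = 0.0204). It was 1.14 ± 0.25 (adjusted p = 0.00536) without dorsal light 4, and its call was lost without ventral sham 1, ventral light 1 or dorsal sham 2, with an adjusted p of up to 0.0550 in limma.

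For the following genes, group means ± SD over 4 arrays are given relative to the batch mean. Mal, a proteolipid that sorts lipids and proteins to myelin, averaged 1.48 ± 0.31 on ventral light and 1.46 ± 0.33 on ventral sham arrays, -1.60 ± 0.58 on central light and -1.40 ± 0.55 on central sham arrays, and 0.19 ± 0.38 on dorsal light and -0.14 ± 0.26 on dorsal sham arrays. Its ventral minus central difference was 2.97 ± 0.20 (adjusted p = 3.06e-09), and Mal also passed in the other region comparisons, with 1.45 ± 0.20 for ventral minus dorsal and -1.52 ± 0.20 for central minus dorsal. Cldn11, the claudin of the tight junctions between myelin layers, averaged 1.24 ± 0.20 on ventral light and 1.21 ± 0.39 on ventral sham arrays, -1.29 ± 0.42 on central light and -1.34 ± 0.23 on central sham arrays, and 0.20 ± 0.23 on dorsal light and -0.03 ± 0.39 on dorsal sham arrays. No arrays of different regions overlapped within a batch: ventral minus central was 2.54 ± 0.16 (adjusted p = 1.4e-09), ventral minus dorsal 1.14 ± 0.16 (adjusted p = 8.43e-05) and central minus dorsal -1.40 ± 0.16 (adjusted p = 6e-06). Tmem88b, a transmembrane protein, averaged 1.67 ± 0.26 on ventral light and 1.67 ± 0.40 on ventral sham arrays, -1.77 ± 0.90 on central light and -1.27 ± 0.47 on central sham arrays, and -0.32 ± 0.99 on dorsal light and 0.02 ± 0.22 on dorsal sham arrays. The ventral group was 9.14-fold higher than the central group, 3.19 ± 0.29 on the log2 scale, and the dorsal light arrays varied most.

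Ermn, ermin, a cytoskeletal protein of late myelination, had the largest ventral minus dorsal difference of the list, 4.43-fold or 2.15 ± 0.24 (adjusted p = 3.37e-06). Ermn averaged 1.77 ± 0.69 on ventral light and 1.53 ± 0.35 on ventral sham arrays, -1.20 ± 0.70 on central light and -1.11 ± 0.24 on central sham arrays, and -0.36 ± 0.45 on dorsal light and -0.63 ± 0.40 on dorsal sham arrays. Ventral minus central was 2.80 ± 0.24 (adjusted p = 1.24e-07), while central minus dorsal, -0.66 ± 0.24 (adjusted p = 0.109), did not pass. In batch A, Ermn averaged 3.02 on central and 3.15 on dorsal arrays, near the bottom of the scale, and in batch B 4.59 and 5.78. The pooled difference thus holds a batch in which a step could hardly show. Mag, an adhesion glycoprotein on the axon-facing side of myelin, averaged 0.84 ± 0.60 on ventral light and 0.72 ± 0.17 on ventral sham arrays, -0.62 ± 0.30 on central light and -0.51 ± 0.20 on central sham arrays, and -0.05 ± 0.28 on dorsal light and -0.38 ± 0.19 on dorsal sham arrays. Mag was higher in ventral by 1.34 ± 0.16 against central and 0.99 ± 0.16 against dorsal SCN, and the -0.35 ± 0.16 between central and dorsal did not pass (adjusted p = 0.237). Mag too was near the bottom of the scale in batch A, at 3.15 on central and 3.31 on dorsal arrays, against 3.95 and 4.49 in batch B. Gpr37, an orphan receptor that oligodendrocytes express, averaged 1.16 ± 0.71 on ventral light and 0.74 ± 0.46 on ventral sham arrays, -0.50 ± 0.47 on central light and -0.72 ± 0.47 on central sham arrays, and -0.69 ± 1.23 on dorsal light and 0.01 ± 0.33 on dorsal sham arrays. Its ventral groups stood above the rest, by 1.56 ± 0.32 (adjusted p = 0.00317) against central and 1.29 ± 0.32 (adjusted p = 0.0169) against dorsal, and the central minus dorsal difference was -0.27 ± 0.32 (adjusted p = 0.692). Evi2a, a membrane protein, averaged 0.96 ± 0.59 on ventral light and 0.73 ± 0.48 on ventral sham arrays, -0.57 ± 0.49 on central light and -0.77 ± 0.35 on central sham arrays, and -0.15 ± 0.31 on dorsal light and -0.20 ± 0.21 on dorsal sham arrays. It was higher in ventral than in central by 1.52 ± 0.21 and than in dorsal by 1.02 ± 0.21. Its central minus dorsal difference of -0.50 ± 0.21 (adjusted p = 0.168) did not pass, but reached -0.70 ± 0.20 (adjusted p = 0.0301) without dorsal light 4 and central light 2.

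Tspan2, a tetraspanin of the oligodendrocyte surface, averaged 0.68 ± 0.22 on ventral light and 0.68 ± 0.04 on ventral sham arrays, -0.78 ± 0.09 on central light and -0.40 ± 0.29 on central sham arrays, and -0.13 ± 0.16 on dorsal light and -0.05 ± 0.07 on dorsal sham arrays. The central light arrays were the lowest group: ventral minus central was 1.27 ± 0.10 (adjusted p = 7.23e-08), ventral minus dorsal 0.77 ± 0.10 (adjusted p = 4.08e-05) and central minus dorsal -0.50 ± 0.10 (adjusted p = 0.00314). Opalin, a glycoprotein of the oligodendrocyte membrane, averaged 0.72 ± 0.17 on ventral light and 0.64 ± 0.37 on ventral sham arrays, -0.85 ± 0.41 on central light and -0.74 ± 0.19 on central sham arrays, and -0.04 ± 0.49 on dorsal light and 0.28 ± 0.27 on dorsal sham arrays. Its central groups were the low ones: central minus dorsal was -0.91 ± 0.17 (adjusted p = 0.00115) and ventral minus central 1.47 ± 0.17 (adjusted p = 5.04e-06). Ventral minus dorsal, 0.56 ± 0.17 (adjusted p = 0.0653), passed without dorsal light 4 and central light 2, at 0.57 ± 0.16 (adjusted p = 0.0338). Cnp, a cyclic nucleotide phosphodiesterase of myelin membranes, averaged 0.56 ± 0.24 on ventral light and 0.71 ± 0.23 on ventral sham arrays, -0.96 ± 0.44 on central light and -0.55 ± 0.26 on central sham arrays, and 0.17 ± 0.39 on dorsal light and 0.07 ± 0.18 on dorsal sham arrays. Cnp was low in central SCN, by -0.87 ± 0.15 against dorsal and with a ventral minus central difference of 1.39 ± 0.15. Ventral minus dorsal was 0.52 ± 0.15 (adjusted p = 0.06) on all arrays and 0.61 ± 0.14 (adjusted p = 0.0109) without dorsal light 4. Pllp, plasmolipin, averaged 0.44 ± 0.28 on ventral light and 0.54 ± 0.14 on ventral sham arrays, -0.47 ± 0.16 on central light and -0.45 ± 0.48 on central sham arrays, and -0.09 ± 0.33 on dorsal light and 0.03 ± 0.12 on dorsal sham arrays. Its ventral minus central difference was 0.95 ± 0.15 (adjusted p = 0.000191). The smaller ventral minus dorsal difference, 0.52 ± 0.15 (adjusted p = 0.0414), lost its call without dorsal light 4, at 0.44 ± 0.14 (adjusted p = 0.0678), and when any of 14 other single arrays was left out, with an adjusted p of up to 0.105.

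**Figure D2:**
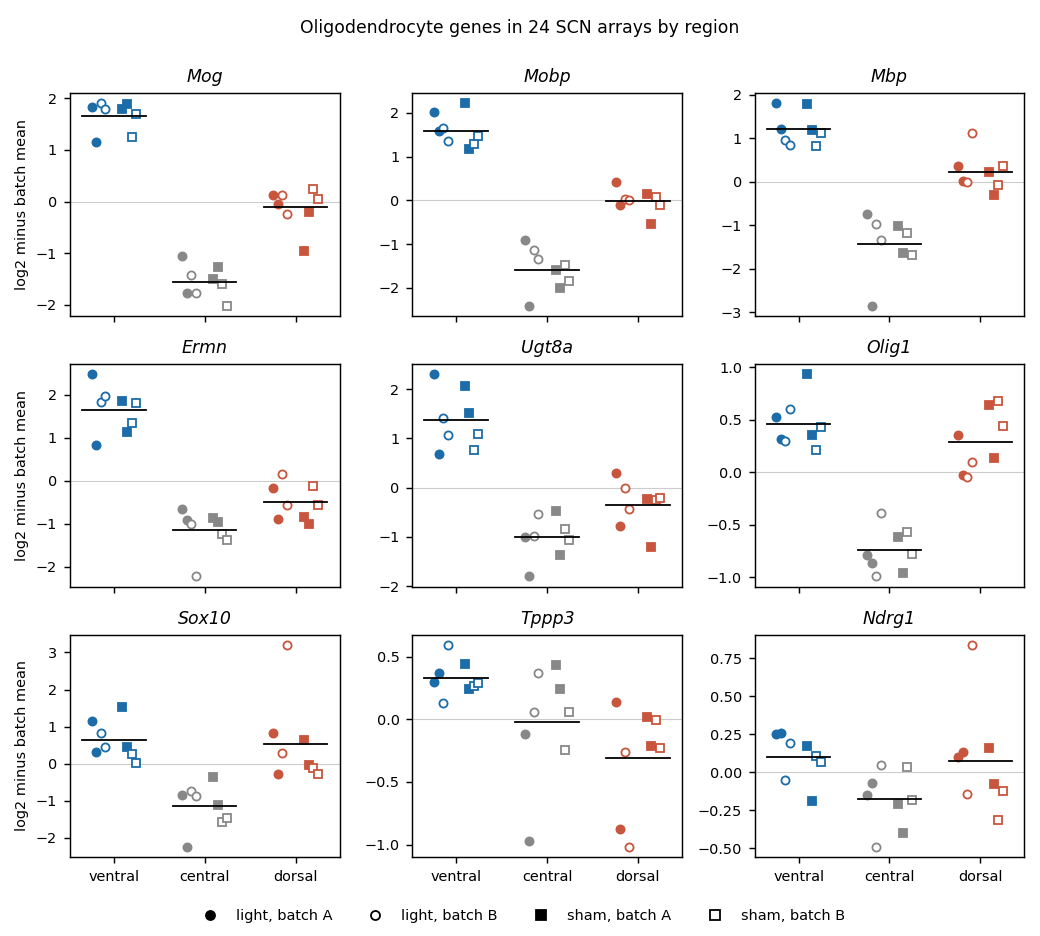
Log2 values of 9 of the genes on each of the 24 arrays, relative to the mean of the 12 arrays of the batch; circles are light and squares sham arrays, filled symbols batch A and open symbols batch B, and lines mark the mean of 8 arrays. For Mog and Mobp the 3 regions do not overlap, Olig1 and Sox10 are low in central only, and Ndrg1 overlaps across all regions.

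All 3 lineage transcription factors that were tested were lower in central than in both other regions, and none passed the test between ventral and dorsal. Olig1 acts in oligodendrocyte maturation. In batch A, Olig1 read 7.41 and 7.21 on ventral light and 7.82 and 7.24 on ventral sham arrays, 6.10 and 6.02 on central light and 6.27 and 5.93 on central sham arrays, and 7.24 and 6.86 on dorsal light and 7.53 and 7.03 on dorsal sham arrays. In batch B, Olig1 read 7.83 and 8.14 on ventral light and 7.74 and 7.97 on ventral sham arrays, 6.54 and 7.15 on central light and 6.97 and 6.76 on central sham arrays, and 7.49 and 7.63 on dorsal light and 8.21 and 7.97 on dorsal sham arrays. Every central array of Olig1 lay below every dorsal array of its batch, and ventral and dorsal arrays overlapped. Central minus dorsal was -1.03 ± 0.13 (adjusted p = 9.8e-06), ventral minus central 1.20 ± 0.13 (adjusted p = 1.34e-06) and ventral minus dorsal 0.17 ± 0.13 (adjusted p = 0.553), with a 95% interval of -0.09 to 0.43.

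Olig2, the factor that specifies the lineage, averaged 0.34 ± 0.12 on ventral light and 0.36 ± 0.20 on ventral sham arrays, -0.26 ± 0.16 on central light and -0.48 ± 0.16 on central sham arrays, and -0.11 ± 0.25 on dorsal light and 0.16 ± 0.24 on dorsal sham arrays relative to the batch mean. Ventral minus central was 0.72 ± 0.11 (adjusted p = 0.000207) and ventral minus dorsal 0.33 ± 0.11 (adjusted p = 0.122). Its small central minus dorsal difference, -0.39 ± 0.11 (adjusted p = 0.0331), lost its call when any of 9 arrays was left out, with an adjusted p of up to 0.0873. Sox10, which acts with Olig2 and switches on myelin genes, had the most uneven dorsal group. In batch A, Sox10 read 7.46 and 6.62 on ventral light and 7.84 and 6.74 on ventral sham arrays, 5.46 and 4.05 on central light and 5.94 and 5.19 on central sham arrays, and 7.13 and 6.04 on dorsal light and 6.93 and 6.27 on dorsal sham arrays. In batch B, Sox10 read 6.74 and 6.37 on ventral light and 6.18 and 5.93 on ventral sham arrays, 5.19 and 5.04 on central light and 4.33 and 4.46 on central sham arrays, and 6.19 and 9.12 on dorsal light and 5.81 and 5.62 on dorsal sham arrays. Dorsal light 4, at 9.12, was far above the other dorsal arrays of batch B. Central minus dorsal was -1.68 ± 0.37 (adjusted p = 0.00585) with this array, -1.29 ± 0.26 (adjusted p = 0.0021) without it and -1.07 ± 0.22 (adjusted p = 0.00226) without central light 2 as well. Ventral minus central was 1.78 ± 0.37 (adjusted p = 0.00422). Ventral minus dorsal was 0.10 ± 0.37 (adjusted p = 0.927) with all arrays and 0.49 ± 0.26 (adjusted p = 0.441) without dorsal light 4. Myrf, not tested, read 2.63 to 4.08 on ventral, 2.42 to 3.49 on central and 2.66 to 4.42 on dorsal arrays over both batches, near the bottom of the scale.

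Of the 4 tested enzymes, 4 were higher in ventral than in central, 3 higher in ventral than in dorsal and 2 lower in central than in dorsal SCN. Ugt8a makes galactosylceramide, the main glycolipid of myelin. In batch A, Ugt8a read 8.30 and 6.67 on ventral light and 8.07 and 7.51 on ventral sham arrays, 4.99 and 4.19 on central light and 5.52 and 4.63 on central sham arrays, and 6.30 and 5.22 on dorsal light and 5.76 and 4.79 on dorsal sham arrays. In batch B, Ugt8a read 9.72 and 9.37 on ventral light and 9.07 and 9.40 on ventral sham arrays, 7.32 and 7.77 on central light and 7.47 and 7.23 on central sham arrays, and 8.30 and 7.88 on dorsal light and 8.05 and 8.09 on dorsal sham arrays. Ventral arrays lay above all others of their batch, and central and dorsal arrays overlapped in batch A. For Ugt8a, ventral minus central was 2.37 ± 0.25 (adjusted p = 1.58e-06) and ventral minus dorsal 1.72 ± 0.25 (adjusted p = 0.000103), and central minus dorsal was -0.66 ± 0.25 (adjusted p = 0.131).

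Fa2h, which hydroxylates the fatty acids of these lipids, averaged 0.98 ± 0.72 on ventral light and 1.20 ± 0.06 on ventral sham arrays, -1.01 ± 0.04 on central light and -1.06 ± 0.39 on central sham arrays, and 0.25 ± 0.65 on dorsal light and -0.36 ± 0.17 on dorsal sham arrays relative to the batch mean. It passed in all 3 region comparisons, with 2.12 ± 0.21 for ventral minus central, 1.14 ± 0.21 for ventral minus dorsal and -0.98 ± 0.21 for central minus dorsal. Aspa, the enzyme that frees acetate from N-acetylaspartate for myelin lipids, averaged 0.75 ± 0.39 on ventral light and 1.01 ± 0.62 on ventral sham arrays, -0.65 ± 0.39 on central light and -0.63 ± 0.23 on central sham arrays, and -0.04 ± 0.32 on dorsal light and -0.43 ± 0.16 on dorsal sham arrays. It stood out in ventral, by 1.52 ± 0.19 (adjusted p = 1.18e-05) against central and 1.12 ± 0.19 (adjusted p = 0.000502) against dorsal, and central minus dorsal was -0.41 ± 0.19 (adjusted p = 0.234). Qdpr, which regenerates tetrahydrobiopterin and is not confined to oligodendrocytes, averaged 0.13 ± 0.17 on ventral light and 0.17 ± 0.17 on ventral sham arrays, -0.30 ± 0.14 on central light and -0.17 ± 0.12 on central sham arrays, and 0.15 ± 0.13 on dorsal light and 0.03 ± 0.09 on dorsal sham arrays. Its differences were small: ventral minus central 0.38 ± 0.09 (adjusted p = 0.0149), central minus dorsal -0.32 ± 0.09 (adjusted p = 0.0367) and ventral minus dorsal 0.06 ± 0.09 (adjusted p = 0.807). The central minus dorsal call was lost without dorsal light 4 and central light 2, at -0.25 ± 0.09 (adjusted p = 0.0756), and when any of 8 single arrays was left out. Gal3st1, not tested, read between 2.76 and 4.09 over all arrays.

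The remaining 7 genes code for cytoskeletal, transport and stress proteins; 5 were higher in ventral than in central, 4 higher in ventral than in dorsal and 4 lower in central than in dorsal SCN. Gsn, gelsolin, cuts actin filaments and is abundant in myelinating cells. In batch A, Gsn read 6.80 and 6.04 on ventral light and 7.17 and 6.70 on ventral sham arrays, 4.06 and 3.76 on central light and 4.43 and 4.14 on central sham arrays, and 4.97 and 4.99 on dorsal light and 4.97 and 4.15 on dorsal sham arrays. In batch B, Gsn read 8.33 and 7.74 on ventral light and 7.40 and 7.84 on ventral sham arrays, 5.40 and 5.35 on central light and 5.61 and 5.85 on central sham arrays, and 6.36 and 8.05 on dorsal light and 5.90 and 6.36 on dorsal sham arrays. Ventral arrays were above all central arrays, and dorsal light 4 was the only dorsal array in the ventral range. For Gsn, ventral minus central was 2.43 ± 0.22 (adjusted p = 3.36e-07). Ventral minus dorsal was 1.53 ± 0.22 (adjusted p = 9.32e-05), and 1.75 ± 0.17 (adjusted p = 3.21e-07) without dorsal light 4. Central minus dorsal was -0.89 ± 0.22 (adjusted p = 0.0136). This call stayed without dorsal light 4, but with sham arrays alone the difference was -0.34 and did not pass (adjusted p = 0.887 in limma).

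Plekhh1, a protein with pleckstrin homology domains, averaged 1.22 ± 0.20 on ventral light and 1.16 ± 0.36 on ventral sham arrays, -1.34 ± 0.98 on central light and -1.04 ± 0.28 on central sham arrays, and 0.17 ± 0.29 on dorsal light and -0.17 ± 0.26 on dorsal sham arrays relative to the batch mean, and passed in all 3 comparisons with 2.38 ± 0.23 for ventral minus central, 1.19 ± 0.23 for ventral minus dorsal and -1.19 ± 0.23 for central minus dorsal. Bcas1, a marker of oligodendrocytes that have begun to myelinate, averaged 1.08 ± 0.19 on ventral light and 0.98 ± 0.35 on ventral sham arrays, -1.24 ± 0.56 on central light and -1.06 ± 0.47 on central sham arrays, and 0.31 ± 0.66 on dorsal light and -0.07 ± 0.29 on dorsal sham arrays. It passed in the same 3 comparisons, at 2.18 ± 0.22, 0.91 ± 0.22 and -1.27 ± 0.22 in the same order. With the mean of its probe sets, the ventral minus dorsal difference of Bcas1 was 0.29 and did not pass (adjusted p = 0.0639). Cryab, a small heat shock protein, averaged 1.00 ± 0.31 on ventral light and 1.01 ± 0.56 on ventral sham arrays, -1.53 ± 1.36 on central light and -0.73 ± 0.36 on central sham arrays, and 0.40 ± 0.72 on dorsal light and -0.15 ± 0.24 on dorsal sham arrays. The wide central light SD came from central light 2, at 4.03. Ventral minus central was 2.13 ± 0.33 (adjusted p = 0.000181) and 1.77 ± 0.18 (adjusted p = 8.68e-07) without dorsal light 4 and central light 2. Central minus dorsal was -1.26 ± 0.33 (adjusted p = 0.0188) and shrank to -0.73 ± 0.18 (adjusted p = 0.0133) without them, while ventral minus dorsal was 0.88 ± 0.33 (adjusted p = 0.171) and passed without them, at 1.04 ± 0.18 (adjusted p = 0.000494).

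Sirt2, a tubulin deacetylase, averaged 0.21 ± 0.19 on ventral light and 0.30 ± 0.10 on ventral sham arrays, -0.31 ± 0.56 on central light and -0.19 ± 0.23 on central sham arrays, and -0.08 ± 0.19 on dorsal light and 0.07 ± 0.10 on dorsal sham arrays. Only ventral minus central passed, at 0.51 ± 0.14 (adjusted p = 0.0393), and this call was lost when any of 10 single arrays was left out, with an adjusted p of up to 0.103. Tppp3, a tubulin-binding protein, departed from the common order and averaged 0.35 ± 0.19 on ventral light and 0.31 ± 0.09 on ventral sham arrays, -0.17 ± 0.57 on central light and 0.12 ± 0.29 on central sham arrays, and -0.50 ± 0.54 on dorsal light and -0.11 ± 0.13 on dorsal sham arrays. Its dorsal arrays were lowest: ventral minus dorsal was 0.63 ± 0.18 (adjusted p = 0.0394), and 0.54 ± 0.17 (adjusted p = 0.0697) without dorsal light 4. The call was also lost when any of 13 other arrays was left out. For Tppp3, ventral minus central was 0.35 ± 0.18 (adjusted p = 0.434) and central minus dorsal 0.28 ± 0.18 (adjusted p = 0.399). Ndrg1, which responds to oxygen and stress and is found in oligodendrocytes, passed no comparison and averaged 0.16 ± 0.15 on ventral light and 0.04 ± 0.16 on ventral sham arrays, -0.16 ± 0.23 on central light and -0.19 ± 0.18 on central sham arrays, and 0.23 ± 0.42 on dorsal light and -0.09 ± 0.19 on dorsal sham arrays. Its 95% intervals were 0.01 to 0.55 for ventral minus central, -0.24 to 0.30 for ventral minus dorsal and -0.52 to 0.02 for central minus dorsal.

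Most of the genes varied together across arrays. With batch means removed, 376 of the 378 gene pairs correlated above 0 over the 24 arrays, with a median Pearson r of 0.79. These values share the regions, the arrays and their processing. With the group and batch means removed as well, 326 pairs were above 0 and the median was 0.37, so the genes also covaried within groups. Against the mean of the other genes, r was highest for Mobp at 0.981 and Cldn11 at 0.979, and lowest for Tppp3 at 0.415 and Ndrg1 at 0.424. Sox10 reached 0.712 and Gpr37 0.673.

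The light pulse moved none of the 28 genes past the test in any region. Under limma, 0 genes of the list were called in the ventral SCN, where 0.719% of all genes were, 0 in the central SCN, where 0.385% were, and 0 in the dorsal SCN, where 0.178% were. At an unadjusted p under 0.05 there were 0, 1 and 2 genes in ventral, central and dorsal, with each gene read from its brightest probe set. Of all 13494 tested genes, 885, 1087 and 1363 were under that limit in the same order. The median light minus sham difference of the 28 genes was 0.01 in ventral, -0.10 in central and 0.22 in dorsal SCN. Over all tested genes it was -0.03 in ventral, -0.08 in central and -0.03 in dorsal. The 95% interval lay wholly between -1 and 1 for 26 genes in ventral, 23 in central and 19 in dorsal SCN, so a light difference of 1 on the log2 scale lay outside it for those genes.

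In ventral SCN the differences ran from -0.27 ± 0.27 for Aspa to 0.42 ± 0.45 for Gpr37, with Ermn at 0.24 ± 0.34 and Evi2a at 0.23 ± 0.29 next. Mog was at 0.01 ± 0.25 and Mbp at -0.02 ± 0.36. Of the 28 genes, 15 were above 0 in ventral SCN, and 6 had the same sign in both batches. For central SCN, 8 were above 0 and 13 had the same sign in both batches. For dorsal SCN, 19 were above 0 and 21 had the same sign in both batches. With any single array left out, the dorsal median stayed between 0.12 and 0.25. The genes covaried within groups, so these counts are not of independent genes. In central SCN the lowest were Cryab at -0.80 ± 0.46 (adjusted p = 0.732), Tmem88b at -0.50 ± 0.41 (adjusted p = 0.869), Cnp at -0.40 ± 0.22 (adjusted p = 0.699) and Tspan2 at -0.37 ± 0.15 (adjusted p = 0.467). Tspan2 was the gene with an unadjusted p under 0.05. The Cryab difference rested on central light 2, and was -0.07 ± 0.26 (adjusted p = 0.97) without it and dorsal light 4. The highest was Mobp at 0.27 ± 0.27. In dorsal SCN, Sox10 at 0.96 ± 0.53 (adjusted p = 0.513), Gsn at 0.74 ± 0.31 (adjusted p = 0.463), Fa2h at 0.61 ± 0.30 (adjusted p = 0.496) and Cryab at 0.55 ± 0.46 (adjusted p = 0.621) were highest, and Gpr37 at -0.70 ± 0.45 (adjusted p = 0.539) was lowest. Without dorsal light 4, Sox10 was at 0.19 ± 0.38 (adjusted p = 0.967), Gsn at 0.32 ± 0.24 (adjusted p = 0.877), Fa2h at 0.34 ± 0.28 (adjusted p = 0.899) and Gpr37 at -0.10 ± 0.35 (adjusted p = 0.983). Olig1, at -0.38 ± 0.18 (adjusted p = 0.487), was the second gene with an unadjusted p under 0.05, beside Gsn. The light difference was tested for a change between regions in the same fit. None of the 28 genes passed, where 0.00741% of all genes did. At an unadjusted p under 0.05 there was again none, against 276 of all 13494 genes. Gsn had the smallest unadjusted p, 0.0560 by the F test of limma.

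**Figure D3:**
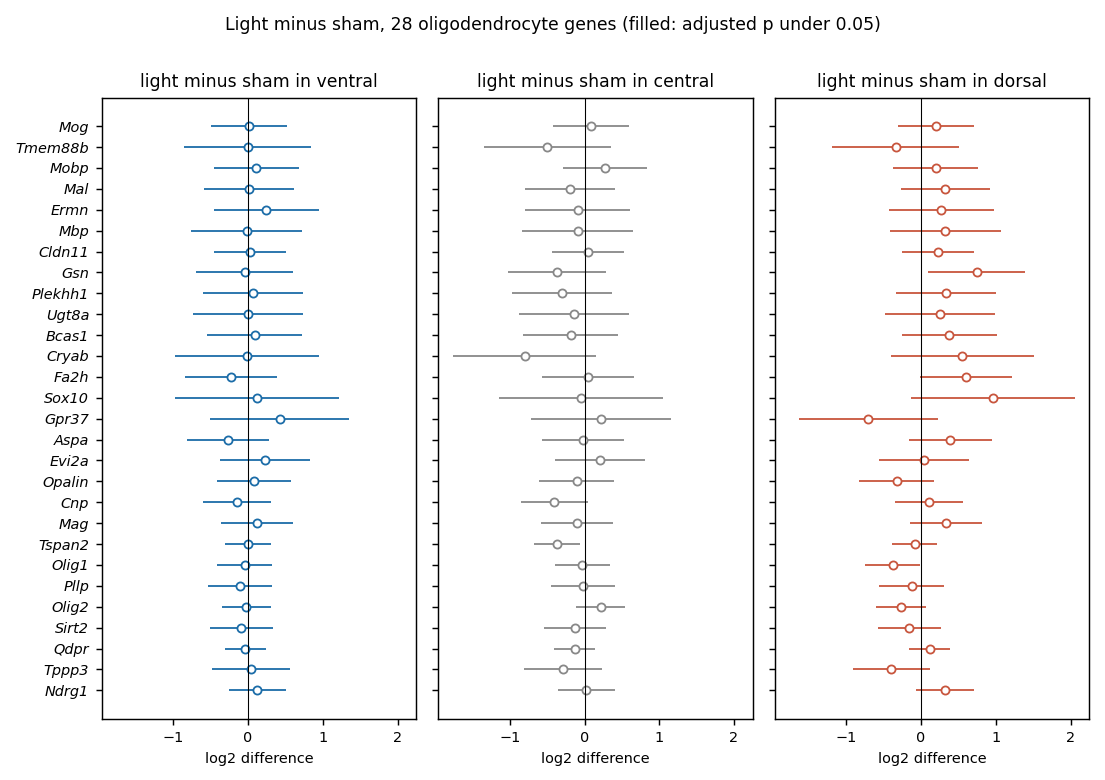
Light minus sham log2 differences of the 28 genes in each SCN region, 4 arrays against 4, with 95% intervals from limma, in the order of the region plot; filled points would mark an adjusted p under 0.05. No point is filled, and the interval of 28 genes in ventral, 27 in central and 26 in dorsal SCN holds 0.

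The region pattern was present after light and after sham. With light arrays alone, 4 against 4, 22 genes were higher in ventral than in central, 11 higher in ventral than in dorsal and 14 lower in central than in dorsal. With sham arrays alone, these counts were 21, 13 and 8. Each has fewer arrays than the main comparison, and the counts do not test a difference between light and sham. Of all 13494 genes, 314, 275 and 449 were called in either direction with light arrays alone, in the same order. With sham arrays alone, 193, 212 and 253 of all genes were.

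Probe sets of a gene did not all give the same differences. The 30 genes had 68 probe sets, of which 61 passed the filter. These were read from a second limma fit, of the 25067 probe sets with 1 symbol past the filter, with p-values adjusted over those. SEs and adjusted p-values here can therefore differ from those of the gene fit. In the second fit Pllp and Tppp3 (ventral minus dorsal), Sirt2 (ventral minus central) and Qdpr (central minus dorsal) lost their calls, with adjusted p-values of 0.0532 to 0.0569 in limma. Mbp had 8 probe sets. For 6 of them ventral minus central ran from 1.63 to 3.15. The other two, at 0.19 and 0.13, did not pass. The one at 0.19 (adjusted p = 0.755) was bright, with a mean of 9.90 in batch B, and its ventral minus dorsal difference was -0.06. Which Mbp transcripts these probe sets read was not analysed here. The 5 Mobp probe sets gave 0.63 to 3.43 for ventral minus central, all past the test. Among the 6 of Gsn, 1 dim probe set was at 0.02, and the rest ran from 0.89 to 2.43. Both further Bcas1 probe sets, at 0.07, and 1 Plekhh1 probe set, at 0.17, did not pass, and all 3 averaged under 5 on the log2 scale in batch B. For Cnp, the probe set that stood for the gene had a ventral minus dorsal difference of 0.52, and another bright one had 0.96 (adjusted p = 0.0069). The second Cryab probe set gave 1.27 for ventral minus dorsal (adjusted p = 0.0144). A bright Tspan2 probe set, with a mean of 7.40 in batch B, gave 0.88 for ventral minus central (adjusted p = 0.079) and -0.04 for central minus dorsal, where the one that stood for the gene had -0.50. The second tested Sox10 probe set, with a mean of 4.43 in batch B, gave 0.41 for ventral minus central (adjusted p = 0.145) and -0.16 for central minus dorsal. For Ndrg1, none of the 5 passed, and they ran from 0.24 to 0.47 for ventral minus central. Light differences varied between probe sets too. An Ndrg1 probe set with a mean of 6.23 in batch B had 0.49 ± 0.13 for light minus sham in ventral SCN (adjusted p = 0.113 in limma). The one that stood for Ndrg1 had 0.12 ± 0.19. The bright Mbp probe set at 0.19 above had -0.34 ± 0.18, -0.46 ± 0.18 and -0.34 ± 0.18 for light in ventral, central and dorsal, and did not pass.

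**Figure D4:**
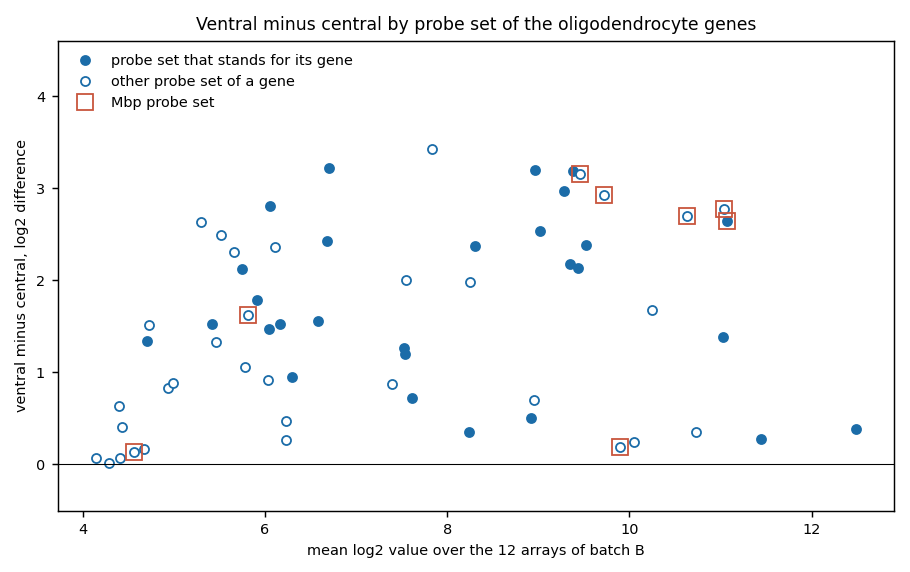
Ventral minus central log2 difference of every tested probe set of the genes against its mean log2 value over the 12 arrays of batch B; filled points stand for their gene, open points are further probe sets, and squares mark the 8 Mbp probe sets. Of the Mbp probe sets 6 lie between 1.63 and 3.15, and the other two lie near 0.

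Other genes known from mature oligodendrocytes showed the pattern in part. Of 47 tested, 25 were higher in ventral than in central, against 4.36% of all genes, and 18 higher in ventral than in dorsal, against 2.63%. None passed in the other direction, where 0.845% and 1.98% of all genes did. In central against dorsal, 7 were lower, against 5.14% of all genes, and 2 higher, against 1.96%. The median ventral minus central difference of the 47 was 0.70. Car2, a carbonic anhydrase, was at 2.12, Adamts4, a protease, at 2.25, Apod, a lipid-binding apolipoprotein, at 1.91 and Ptgds, prostaglandin D synthase, at 1.85 for ventral minus central (adjusted p up to 3.25e-05). Klk6, a protease, was at 1.66, Anln at 1.52 and Elovl7, a fatty acid elongase, at 1.24 for ventral minus dorsal (adjusted p up to 9.57e-05). Ptgds, which leptomeningeal cells also make, had the largest central minus dorsal difference of the list, -1.73. The 2 genes higher in central, Edil3 at 0.64 and Efnb3 at 0.72, are named after their values were seen. Of 13 oligodendrocyte precursor genes tested, 1 was higher in ventral than in central (Vcan, 0.62), against 4.36% of all genes, and 1 lower in ventral than in dorsal (Susd5, -0.92), against 1.98%. The 4 lower in central than in dorsal, against 5.14% of all genes, were Pdgfra at -0.65, Vcan at -0.73, Pcdh15 at -0.77 and Gpr17 at -0.89. Their median was -0.11 for ventral minus dorsal and 0.33 for ventral minus central. Of 28 cholesterol and sphingolipid synthesis genes tested, 28 lay above 0 in both ventral comparisons, with a median of 0.29 against dorsal and 0.31 against central. Of the 28, 3 passed against dorsal, where 2.63% of all genes did, and 4 against central, where 4.36% did: Msmo1 at 0.82, Insig1 at 0.36 and Scd1 at 0.35 against dorsal, and Hsd17b7 at 0.79, Cyp51 at 0.45, Nsdhl at 0.42 and Insig1 at 0.38 against central.

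Markers of further cell types also differed between regions. For the counts below, 4.36% of all genes were higher and 0.845% lower in ventral than in central. Against dorsal, 2.63% of all genes were higher and 1.98% lower in ventral, and 1.96% higher and 5.14% lower in central. Of 15 astrocyte genes, 10 were higher in ventral than in central, 3 higher in ventral than in dorsal and 4 lower in central than in dorsal. Their mean per array, relative to the batch mean, was 0.29 to 0.52 in ventral, -0.85 to -0.20 in central and -0.93 to 0.32 in dorsal SCN. Acsbg1, an acyl-CoA synthetase, was at 1.32 for ventral minus central and Aqp4, the astrocyte water channel, at 0.77 for ventral minus dorsal, where Gfap and Aldh1l1 passed too. Acsbg1, Gjb6, Ntsr2 and Fgfr3 were the 4 lower in central than in dorsal. Of 10 endothelial genes, the transporters Slco1a4 and Abcb1a, the junction protein Cldn5 and the receptor Tek were the 4 higher in ventral than in central and the 4 lower in central than in dorsal, with none called between ventral and dorsal. Their array means were 0.02 to 0.68 in ventral, -0.64 to -0.15 in central and -0.09 to 0.60 in dorsal. Of 12 microglia genes, 1 was higher in ventral than in central (Tyrobp) and 4 lower in central than in dorsal (Tyrobp, Ctss, C1qc and Csf1r), with array means of -0.19 to 0.28, -0.63 to -0.10 and -0.06 to 0.62 in ventral, central and dorsal. Of 12 neuron genes, none passed between ventral and central, 2 were lower in ventral than in dorsal (Syt1 and Nefl) and 4 lower in central than in dorsal (also Nefm and Nefh). Of 7 ependymal genes, Ccdc153 and Ak7 were lower in ventral than in dorsal, and these and Tekt1 lower in central than in dorsal. Of 13 genes of SCN neurons, 2 were higher (Vip and Grp) and 2 lower (Rorb and Avp) in ventral than in dorsal, 2 lower in ventral than in central (Grp and Lhx1), and 3 higher (Grp, Vip and Lhx1) and 2 lower (Avp and Rorb) in central than in dorsal. Without dorsal light 4, more genes passed: 15 of 15 astrocyte, 9 of 28 lipid, 3 of 13 precursor and 3 of 12 microglia genes were higher in ventral than in central, and 11 of the 47 oligodendrocyte and 8 of the 15 astrocyte genes were lower in central than in dorsal, with 1 astrocyte gene higher. The astrocyte median for central minus dorsal was then -0.49, against -0.32 with all arrays. Calls among all 13494 genes rose as well, from 702 to 1092 for ventral minus central and from 959 to 1180 for central minus dorsal. Astrocyte, endothelial, microglia, precursor, neuron and ependymal lists thus each held genes lower in central than in dorsal SCN. The first 4 of them also held genes higher in ventral than in central. With all arrays this was 1 of 12 microglia and 1 of 13 precursor genes, against 4.36% of all genes. The part of these lists in the result was not tested.

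After light, 1 of the 47 other oligodendrocyte genes was called: Dock10, a guanine nucleotide exchange factor, higher in dorsal SCN by 1.02 (adjusted p = 0.0204). Among the lipid genes, Pmvk, a kinase of the mevalonate pathway, was higher after light in ventral SCN by 0.77 (adjusted p = 0.0418). Gfap, the astrocyte filament protein, was higher after light by 1.28 in ventral and 1.33 in dorsal SCN (adjusted p = 0.018 and 0.0319), and Prok2, an SCN output peptide, by 2.61 in ventral and 2.62 in central SCN (adjusted p = 0.0235 and 0.0345). With all arrays, no precursor, microglia, endothelial, ependymal or neuron gene of these lists was called for light in any region. Without dorsal light 4, Cd68, a lysosomal protein of microglia, was higher after light in central SCN by 1.22 (adjusted p = 0.018), and Elovl7 in ventral SCN by 0.73 (adjusted p = 0.0404). Without central light 2 as well, Nefh, a neurofilament, was lower after light in ventral SCN, at -0.80 (adjusted p = 0.048). In that fit Carns1 and Elovl7 were higher after light in central SCN, by 0.71 and 0.76 (adjusted p = 0.0365 and 0.0296 in limma). Leaving out 1 or both arrays also gave light calls for Gfap, Pmvk, Avp and, lower, Gjb6 in central SCN. Prok2 was then called in dorsal, Rorb in central and dorsal, and Rora in all 3 regions. These genes are named after their values were seen.

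**Figure D5:**
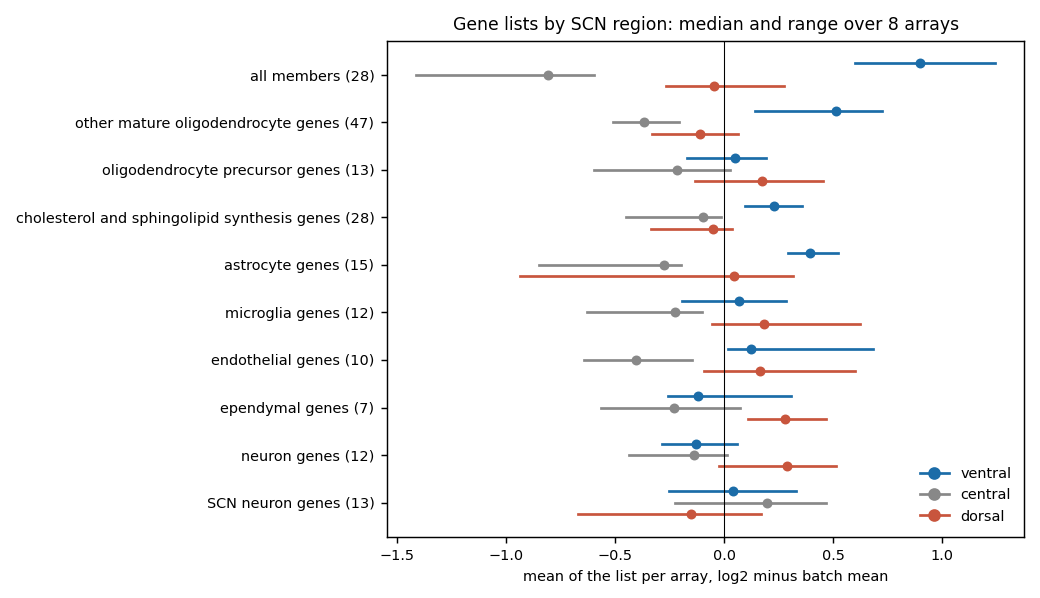
Mean of each gene list per array, as log2 relative to the batch mean, with points at the median and bars over the range of 8 arrays of the ventral, central and dorsal SCN; the number of tested genes is in parentheses. The 28 genes separate all 3 regions, and the other mature oligodendrocyte genes have the next highest ventral median.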

How the data were processed

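The deposited table holds log2 expression values of 24 Affymetrix arrays, as the authors computed them. GCRMA 2.32.0, MAS5 and R 3.0.2 appear in the submitters' processing notes, with no step assigned to them. Per the labels, RNA with bacterial ribosomal RNA as carrier was amplified and biotin-labelled in batches. Array medians of the log2 values differed between the 2 batches, so batch was a term in every fit except 1 named alternative.

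Probe sets were named from GEO's platform annotation: of 45101, 64 were controls, 34945 carried 1 gene symbol, 932 several and 9160 none. The probe set with the highest mean stood for each of 18193 genes. Genes above log2 4 on at least 4 arrays (13494) went into 1 linear model of 6 group means and batch, fitted by lmFit and eBayes of limma 3.58.1 (R 4.3.3). A region difference was the mean of the differences after light and after sham, 8 arrays against 8. P-values were adjusted by Benjamini-Hochberg over all 13494 genes, at a threshold of 0.05. Probe sets of a gene were compared in a second fit of the same model to 25067 probe sets with 1 symbol, adjusted over those. The scripts were tested on simulated data.

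The members and lists were chosen with earlier results of these data known. All 32 genes are accounted for, with values of every array or group for those past a test and for the 4 with the largest difference in each comparison. From other lists, up to 6 genes with the smallest p are named per comparison, plus the 10 genes most correlated with the members' mean. Alternatives were no batch term, each batch alone, light or sham arrays alone, other filters and probe set rules, median centring, array weights, a Gapdh 3′ to 5′ covariate, a replicate block and leaving out arrays. The number of arrays limits the precision. Tables and plots were made with pandas 2.3.3 and matplotlib 3.10.9 in Python 3.11.15.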

Additional observations from a re-analysis of the deposited data

Results flagged for a closer look

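In 11 of 168 sets of 4 arrays (6.55%), 1 array lay far from the other 3 by Dixon's criterion, which marks about 1 set in 20 by chance. Of the 11, 5 were on central light 2, where Mal read 5.00, Cnp 8.58, Sox10 4.05, Sirt2 5.78 and Cryab 4.03, each the lowest of the group relative to its batch. Ventral light 2 was the lowest of its group for Mog, at 5.93, and for Mag, at 3.47, and ventral sham 2 was the highest of its group for Tspan2, at 6.19. Gpr37 was lowest on central light 4, at 5.38, and Ugt8a on dorsal sham 2, at 4.79. Gsn was highest on dorsal light 4, at 8.05, the array whose Gapdh probe sets differed most between the 3′ and 5′ ends.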

How the results depend on the processing

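For members called, ventral minus dorsal, the 19 genes became 0 with no batch term, 9 with batch A alone, 7 with batch B alone and 11 with light arrays alone. For members called, ventral minus central, the 26 genes became 6 with no batch term. For members called, central minus dorsal, the 18 genes became 0 with no batch term, 5 with batch A alone, 7 with batch B alone and 8 with sham arrays alone. A fit with no batch term leaves the batch difference in the residual spread, and the single-batch and single-treatment fits have 4 arrays against 4. Over the other settings the counts stayed within 1.5 times of those given, and over all settings they ran from 0 to 23, 6 to 26 and 0 to 23 in the same order. Leaving out each array in turn gave 16 to 22 for ventral minus dorsal, 25 to 26 for ventral minus central and 16 to 19 for central minus dorsal, and 0 for light and for its interaction with region. Single calls lost in this way were those of Mbp, Pllp and Tppp3 (ventral minus dorsal), Olig2 and Qdpr (central minus dorsal) and Sirt2 (ventral minus central). Under other probe set rules, Tspan2 lost its calls with the probe set of highest SD, at 0.84, 0.88 and -0.04 for ventral minus dorsal, ventral minus central and central minus dorsal. The same rule lost Olig2 and Qdpr (central minus dorsal), Pllp and Tppp3 (ventral minus dorsal) and Sirt2 (ventral minus central). With the mean of probe sets it lost central minus dorsal, at -0.26, and Bcas1 lost ventral minus dorsal, at 0.29. No difference that had passed the test changed sign under any setting run.

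Over all genes, 622, 702 and 959 were called for ventral minus dorsal, ventral minus central and central minus dorsal. In that order, the counts were 1374, 1390 and 1762 with array weights, 153, 199 and 185 with batch A alone, 124, 176 and 214 with batch B alone, 4, 9 and 7 with no batch term, 212, 193 and 253 with sham arrays alone, and 275, 314 and 449 with light arrays alone. Ventral minus central had 1092 without dorsal light 4, 1078 without central light 2 as well, and 1080 with the Gapdh covariate, and central minus dorsal had 592 with the compared groups alone. For light, 97 genes were called in ventral, 52 in central and 24 in dorsal SCN, and over the settings 0 to 576, 0 to 204 and 0 to 353. Centring arrays on their medians moved the median of all genes to -0.06 for ventral minus central and to 0.07 for central minus dorsal, and gave 24 and 16 of the 28 genes.

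The labels give all groups replicate numbers 1 to 4. Deviations of same-numbered arrays from their group and batch means had correlations of 0.209 to 0.623 for numbers 1 and 2, all in batch A, but 0.0960 to 0.460 for numbers 3 and 4, all in batch B. With 2 arrays per group and batch, the deviations of numbers 1 and 2 mirror each other, as do those of 3 and 4. Each batch therefore gives 1 set of correlations. Every pair was above 0, so same-numbered arrays shared some variation, for which the main fit has no term. The labels do not say what these arrays share, and its source was not tested. The fit with the replicate block gave 21 genes for ventral minus dorsal, 26 for ventral minus central and 20 for central minus dorsal, and 0 for light in each region and for the interaction. The fit restricted to the compared groups gives no interaction.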

Other observations

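Among the genes outside the list, 10 tracked the mean of the 28 genes most closely over the 24 arrays with batch means removed. They were Gng11 (r = 0.944), S100b (0.939), Daam2 (0.935), 1700047M11Rik (0.932), Ddc (0.930), Gltp (0.927), Irs4 (0.919), Sqor (0.913), Ado (0.908) and Cerox1 (0.908). These correlations describe arrays that share regions and batches. S100b codes for a calcium-binding protein of glia and Gltp for a glycolipid transfer protein, whereas Ddc, aromatic L-amino acid decarboxylase, and Irs4, an insulin receptor substrate, are known from neurons and hypothalamus.

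The 10 genes were picked for this likeness on the same arrays, so their region differences are a description. Ventral minus central ran from 1.08 for S100b to 2.03 for 1700047M11Rik, with Irs4 at 1.74, Gng11, a G protein subunit, at 1.58 and Ddc at 1.46. Ventral minus dorsal was 0.98 for Irs4 and 0.72 for Ddc. Central minus dorsal was -0.94 for 1700047M11Rik, -0.78 for Cerox1 and -0.68 for S100b.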
